A study of Sus scrofa with 12 samples.

Results

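The HSP70 family chaperones are the ATP-driven heat shock proteins and their larger HSP110-type relatives, and they were taken here as every row of the coding-gene table whose symbol was HSPA1L, HSPA2, HSPA4, HSPA4L, HSPA5, HSPA8, HSPA9, HSPA13, HSPA14 or HSPH1. This gave 10 of the 21674 mRNA rows of the table. HSP70 proteins bind exposed hydrophobic stretches of client proteins in a cycle of ATP binding and hydrolysis that J-domain co-chaperones start and nucleotide exchange factors reset. Separate members serve the cytosol, the endoplasmic reticulum (ER) and the mitochondria, and the testis is known for additional forms made mainly by germ cells, of which HSPA2 is needed for meiosis in male mice. Heat shock factors and the ER stress response are the usual inducers of stress-regulated members.

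Long RNA of whole pig testis was sequenced in 12 libraries to compare breeds and ages around the onset of sperm production. Hezuo (HZ) boars gave 3 libraries at 30 d of age (Ha) and 3 at 120 d (Hb), and Landrace (LC) boars gave 3 at 30 d (La) and 3 at 120 d (Lb). The testes came from castration of 3 boars per group, with boars of a breed described as sharing a genetic background, so each library stands for 1 boar and for all cell types of the organ. The total estimated count per library ranged from 17165519 to 23758931. Levels are given as CPM, the count divided by library size, after trimmed mean of M values (TMM) scaling over the 12 libraries, or, where genes of different length are set side by side, as the deposited FPKM, which divide fragments by transcript length and library depth. Changes are log2 fold changes of the second group over the first, tested with the edgeR quasi-likelihood method and Benjamini-Hochberg adjustment over all mRNAs tested. A gene was called when its adjusted p was under 0.05 and its log2 fold change was beyond 1 in either direction.

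All 10 members passed the filter on low counts in every comparison. With age in HZ, 3 members were called up (28.2% of all 16548 mRNAs tested were) and 1 was called down (23.2% of all). The adjusted p was under 0.05 for 9 of the 10 members against 68.9% of all mRNAs, and 9 members had Ha and Hb values in CPM that did not overlap (76.2% of all mRNAs tested). In FPKM, looked at after seeing the data, HSPA4, HSPA5, HSPA13, HSPA14 and HSPH1 overlapped and 5 members did not (79.3% of all). With library totals the adjusted p of edgeR was under 0.05 for 5 members and with either limma setting on FPKM for 5. With age in LC, 4 members were called up (27.5% of 16637 mRNAs) and 0 down (20.1%). For that 0 by edgeR, 1 member was lower at an unadjusted p under 0.05, DESeq2 called 0 and limma on FPKM called 1. The adjusted p was under 0.05 for 8 members against 70.0% of all mRNAs, and 8 members did not overlap between La and Lb in CPM (75.9% of all). In FPKM 7 did not overlap (77.5% of all). The members' median log2 fold change was 0.63 in HZ and 0.77 in LC, beside -0.02 and 0.01 for all mRNAs tested. The difference between members and all mRNAs in the shares called was not tested. Scaling moved the zero point of the age comparisons. In Ha vs Hb the median of all mRNAs shifted to -0.32 with library totals, -0.34 with upper-quartile factors, and -0.28 and -0.47 with limma on log2 FPKM after adding 1 and 0.1. In La vs Lb the same settings gave -0.16, -0.25, -0.16 and -0.27. An exact permutation test of 3 libraries against 3 cannot go below p = 0.1, so the p values given come from the edgeR model.

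**Figure D1:**
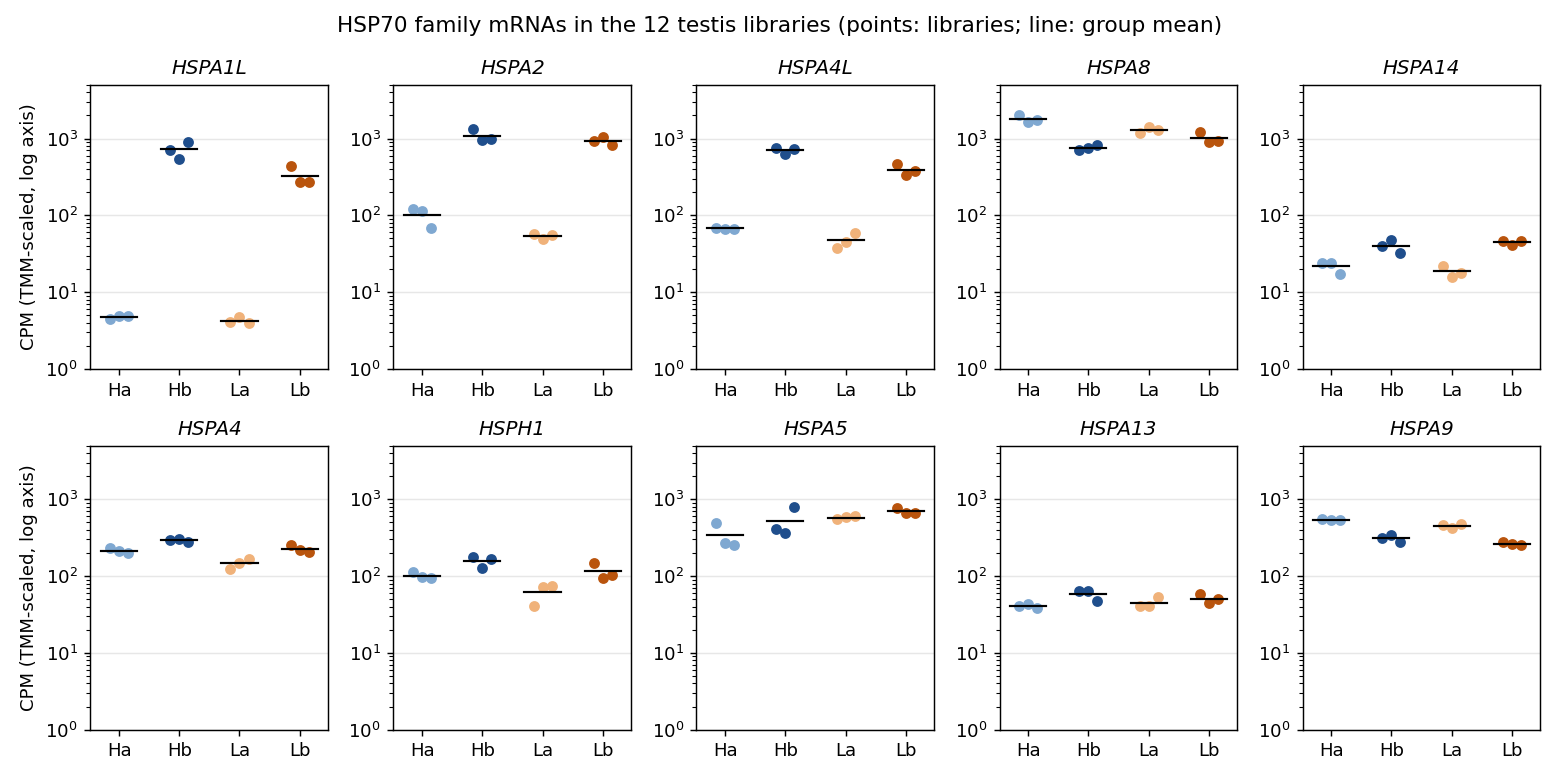
Level of each HSP70 family member in each of the 12 libraries (CPM, log axis), by group, with points for libraries and a line at each group mean. HSPA1L lay between 3.93 and 4.94 CPM in the 6 libraries of 30 d and between 269 and 916 CPM in the 6 libraries of 120 d.

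The germ-cell forms HSPA1L, HSPA2 and HSPA4L rose the most with age among the members. HSPA1L, a testis-rich cytosolic HSP70 (chr7:23909960-23938678, build Sscrofa11.1), stood at 4.41, 4.94 and 4.89 CPM in the Ha libraries and 721, 538 and 916 CPM in the Hb libraries. In LC it stood at 4.03, 4.72 and 3.93 CPM in the La libraries and 443, 272 and 269 CPM in the Lb libraries. Every library of 120 d lay far above every library of 30 d in both breeds. HSPA1L rose 153-fold in HZ, a log2 fold change of 7.25 (SE 0.27, edgeR adjusted p = 1.96e-06). In LC it rose 78.4-fold, with 6.29 (SE 0.25, edgeR adjusted p = 1.99e-07). HSPA1L was called in all 15 alternative settings of both age comparisons, but its size varied, from 6.05 (limma after adding 1 to FPKM) to 7.41 (without Hb2) in HZ and from 5.20 (the same limma setting) to 6.41 (without Lb3) in LC. At 30 d it was the lowest of the 10 members per length, with 1.58 ± 0.0814 FPKM in Ha and 1.36 ± 0.147 FPKM in La (SD, n = 3). At 120 d its level was 173 ± 40.2 FPKM in Hb and 87.5 ± 24.0 FPKM in Lb (SD, n = 3).

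The annotated span of HSPA1L contained HSP70.2, an inducible HSP70 gene of the pig (chr7:23925929-23927854, Sscrofa11.1). HSP70.2 went the other way, with 239 ± 70.4 CPM in Ha against 88.5 ± 8.36 CPM in Hb (SD, n = 3). It fell in HZ with a log2 fold change of -1.43 (SE 0.21, edgeR adjusted p = 0.00074). In LC its log2 fold change was -0.75 (SE 0.14, edgeR adjusted p = 0.00122), short of the fold threshold; it was called with upper-quartile factors (-1.02) and with limma on FPKM (-1.04 and -1.06). How reads that fit both HSPA1L and HSP70.2 were divided is not given in the sources used here. The level of each is therefore less certain than that of a gene standing alone. Annotated spans of HSPA13 and HSPA4L also overlapped other entries, the mRNA LOC100152428 and the lncRNA LOC102167943. LOC100152428 had log2 fold changes of -1.55 (SE 0.32) in HZ and -1.24 (SE 0.29) in LC. How reads in these overlaps were divided is likewise not given.

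HSPA2, a cytosolic HSP70 of meiotic and later germ cells (chr7:88607140-88609947), stood at 121, 113 and 68.6 CPM in the Ha libraries and 1330.2, 961 and 978 CPM in the Hb libraries. In LC the values were 56.9, 49.6 and 56.0 CPM in the La libraries and 927, 1054 and 829 CPM in the Lb libraries. The ages did not overlap in either breed, and Ha3 was the lowest of the Ha libraries. HSPA2 rose 10.8-fold in HZ, with a log2 fold change of 3.44 (SE 0.27, edgeR adjusted p = 3.5e-05). It rose 17.5-fold in LC, with 4.13 (SE 0.13, edgeR adjusted p = 8.3e-08). HSPA4L, the HSP110-type relative that is abundant in germ cells (chr8:97032179-97088240), stood at 69.4, 66.6 and 67.3 CPM in the Ha libraries and 762, 634 and 737 CPM in the Hb libraries. Its LC values were 38.1, 45.1 and 58.1 CPM in the La libraries and 465, 332 and 383 CPM in the Lb libraries. The 3 Ha libraries were nearly equal, and again no library of 30 d reached one of 120 d. HSPA4L rose 10.5-fold in HZ, with a log2 fold change of 3.39 (SE 0.14, edgeR adjusted p = 2.67e-06), and 8.44-fold in LC. The LC log2 fold change was 3.08 (SE 0.20, edgeR adjusted p = 2.74e-06). Both genes were called in all 15 alternatives of both age comparisons, HSPA2 at 2.93 to 3.58 in HZ and 3.73 to 4.20 in LC and HSPA4L at 2.73 to 3.45 and 2.53 to 3.26.

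Summed levels of germ cell markers also rose with age, though not those of every spermatogonial gene. The summed level of 8 spermatocyte markers was 10.5, 10.96 and 6.50 FPKM in the Ha libraries and 151, 157 and 134 FPKM in the Hb libraries. In LC it was 5.40, 4.76 and 4.41 FPKM in La and 116, 110.3 and 124 FPKM in Lb. All 8 rose in both breeds, and PIWIL1 was the most abundant in Ha, Hb and Lb and MEIOB in La. For 10 spermatid markers, of which 9 were tested and all 9 rose in both breeds, the sum was 5.72, 7.02 and 6.73 FPKM in Ha and 5280.0, 5793 and 7667 FPKM in Hb. It was 10.8, 9.39 and 4.53 FPKM in La and 3909, 3342 and 3575 FPKM in Lb, with PRM1 the most abundant in each group. TNP1 and SPACA3 were at 3 counts or fewer in Ha and La, as was ACRV1 in Ha. The 11 spermatogonial markers summed to 76.0, 73.3 and 59.5 FPKM in Ha, 177, 182 and 173 in Hb, 41.2, 40.6 and 43.9 in La and 155, 139.8 and 162 in Lb, with 3 up and 6 down in HZ and 4 up and 5 down in LC. DAZL led this list in Ha, ZBTB16 in La and DDX4 at 120 d, and NANOS2 was at 3 counts or fewer in Hb and Lb. DDX4 alone held 139 of a mean sum of 177 FPKM in Hb and 107 of 152 FPKM in Lb. The rise of the sum in HZ rests on DDX4. The list's median log2 fold change was -1.01 in HZ and -0.53 in LC. Levels in whole tissue are relative to the library. Fewer cells of a type, less RNA per cell and more RNA from other cells therefore cannot be told apart. From stained sections, the paper reports that spermatogenic cells became more numerous with age in both breeds. The part of cell composition in the changes of HSPA1L, HSPA2 and HSPA4L was not tested.

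Summed levels of the somatic cell markers were lower at 120 d, though not those of every gene. The 8 Sertoli cell markers summed to 782, 751 and 973 FPKM in Ha and 181, 288 and 216 FPKM in Hb, and to 1508, 1770.5 and 1632 FPKM in La and 311, 385 and 371 FPKM in Lb. INHA led at 30 d and CLDN11 at 120 d, with 4 of 8 down in each breed. In stained sections the paper counted more Sertoli cells at 120 d than at 30 d in both breeds. How that count relates to the lower summed marker level was not tested. The 7 Leydig cell markers summed to 5487, 5009 and 4883 FPKM in Ha and 2180.4, 189 and 128 FPKM in Hb, so Hb1 stood apart from the other Hb libraries. In LC they summed to 7771, 5341 and 6281 FPKM in La and 2708, 4057 and 1712 FPKM in Lb. CYP17A1 led at 30 d and INSL3 at 120 d, with 4 down in HZ and 5 down in LC. The 10 peritubular and stromal markers summed to 977, 949.8 and 978 FPKM in Ha and 102, 101 and 66.5 FPKM in Hb. The LC values were 1341, 1225 and 1512 FPKM in La and 530.1, 516 and 562 FPKM in Lb. COL3A1 led in Ha, La and Lb and ACTA2 in Hb, with 8 down in HZ and 5 down and 1 up in LC. The gene up in LC was ACTA2, singled out after its values were seen, at 1.42 (SE 0.18) in LC and -1.14 (SE 0.17) in HZ. The 5 endothelial markers, led by VWF, summed to 93.7, 94.6 and 84.4 FPKM in Ha, 13.9, 26.7 and 15.7 in Hb, 98.0, 78.3 and 91.0 in La and 28.2, 45.7 and 28.6 in Lb. The 5 macrophage markers, led by CD163 in Ha and CSF1R elsewhere, summed to 40.3, 32.7 and 32.6 FPKM in Ha, 3.49, 4.56 and 2.24 in Hb, 38.3, 33.0 and 36.3 in La and 5.91, 9.64 and 9.91 in Lb. All 5 endothelial and all 5 macrophage markers fell in HZ, and 3 and 4 of them fell in LC.

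Among the general cytosolic members, HSPA8, the constitutive HSC70 (chr9:49982278-49986760), stood at 2031, 1642 and 1741 CPM in the Ha libraries and 705, 743 and 819 CPM in the Hb libraries. In LC it measured 1169.8, 1432 and 1281 CPM in the La libraries and 1236, 907 and 942 CPM in the Lb libraries. All Hb libraries were below all Ha libraries, while the La and Lb values overlapped in CPM because Lb1 lay within the La range. In FPKM all Lb libraries (357, 261 and 302) lay below all La libraries (426, 526 and 476). HSPA8 fell in HZ to a level 2.39-fold lower, with a log2 fold change of -1.26 (SE 0.15, edgeR adjusted p = 0.000239), and was called in all 15 alternatives. In LC the log2 fold change of HSPA8 was -0.32 (SE 0.14, edgeR adjusted p = 0.0769). It depended on scaling: for the log2 fold change of HSPA8, La vs Lb, library totals gave -0.49 (edgeR adjusted p = 0.0124), upper-quartile factors -0.58 (edgeR adjusted p = 0.00511) and the limma settings -0.64 and -0.64, so a fall in LC short of the fold threshold was seen with these. The difference between the breeds in this change was itself tested. The change of HSPA8 in LC exceeded that in HZ by a log2 value of 0.92 (SE 0.20, edgeR adjusted p = 0.0234), short of the fold threshold. That difference was positive in all 20 alternatives, and its edgeR adjusted p was over 0.05 without Ha1 and without La1, where it was 0.056. It was called in 7 of them, at 1.07 with library totals, 1.10 and 1.11 with limma on FPKM, 1.02 without Hb3, 1.04 without La2, 1.01 without Lb2 and 1.0 without Lb3. The interaction median of all mRNAs was 0.17 with library totals and 0.09 and 0.18 with the limma settings, against 0.02 with TMM. For the interaction 0 members were called by edgeR, where 5.14% of 17332 mRNAs were called, and 1 member had an adjusted p under 0.05 against 7.25% of all mRNAs. At an unadjusted p under 0.05, 2 members were positive and 1 negative, DESeq2 called 1 member (HSPA1L, negative) and limma called 1 (HSPA8, positive). In the same test 5 of 10 peritubular and stromal, 2 of 11 spermatogonial, 1 of 5 endothelial and 1 of 5 macrophage markers were called positive and 2 of 10 spermatid markers negative. The part of these cells in the difference of HSPA8 was not tested.

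HSPA14, a ribosome-associated HSP70 (chr10:46908161-46935323), stood at 24.2, 24.0 and 17.5 CPM in the Ha libraries and 39.4, 48.0 and 32.4 CPM in the Hb libraries. The LC boars had 22.2, 15.8 and 17.8 CPM in the La libraries and 45.8, 41.5 and 46.7 CPM in the Lb libraries. In CPM, levels were higher at 120 d in both breeds without overlap; in FPKM the HZ ages overlapped. HSPA14 rose 2.43-fold in LC, with a log2 fold change of 1.28 (SE 0.16, edgeR adjusted p = 0.000134), but with limma on FPKM the values were 0.91 and 0.98 and the call was lost. In HZ it was 0.87 (SE 0.21, edgeR adjusted p = 0.00693), below the fold threshold, and for the log2 fold change of HSPA14, Ha vs Hb, limma gave 0.35 and 0.37, with an adjusted p over 0.05. The interaction for HSPA14 was 0.40 (SE 0.26, edgeR adjusted p = 0.39).

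Of the HSP110-type members, which act as nucleotide exchange factors for HSP70, HSPA4 (chr2:135345724-135391112) stood at 229, 214 and 200.3 CPM in the Ha libraries and 298, 301 and 282 CPM in the Hb libraries. In LC it stood at 125, 147 and 168 CPM in the La libraries and 252, 217 and 206 CPM in the Lb libraries. The ages did not overlap on the CPM scale in either breed, while in FPKM the HZ ages did. The log2 fold change of HSPA4 was 0.45 (SE 0.11, edgeR adjusted p = 0.00779) in HZ, and its sign turned with limma on FPKM, to -0.03 and -0.04. In LC it was 0.63 (SE 0.14, edgeR adjusted p = 0.00311), and for the log2 fold change of HSPA4, La vs Lb, library totals gave 0.46, upper-quartile factors 0.37 and limma 0.31 and 0.33. HSPH1 (chr11:7733874-7759528) stood at 113, 97.6 and 93.8 CPM in the Ha libraries and 177, 126 and 168 CPM in the Hb libraries. The levels in LC were 41.4, 71.2 and 74.4 CPM in the La libraries and 149.8, 94.2 and 105 CPM in the Lb libraries. In CPM, HSPH1 was higher in all 120 d libraries than in all 30 d libraries of the same breed, with La1 the lowest library; in FPKM the ages overlapped in both breeds. Its log2 fold change was 0.63 (SE 0.16, edgeR adjusted p = 0.0105) in HZ. For the log2 fold change of HSPH1, Ha vs Hb, library totals gave 0.31, upper-quartile factors 0.31 and limma 0.13 and 0.13, all with an adjusted p over 0.05 by edgeR or limma. In LC it was 0.92 (SE 0.25, edgeR adjusted p = 0.0105), and it was called at 1.01 without La2, 1.06 without La3 and 1.04 without Lb2. With limma on FPKM (log2 fold change of HSPH1, La vs Lb) it was 0.59 and 0.62, with an adjusted p over 0.05.

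In the ER, HSPA5, the main ER HSP70 also called BiP (chr1:265930044-265934959), stood at 497, 273 and 252 CPM in the Ha libraries and 408, 366 and 800.1 CPM in the Hb libraries. In LC it reached 548, 585 and 598 CPM in the La libraries and 765, 671 and 657 CPM in the Lb libraries. Ha1 and Hb3 were each far above the other 2 libraries of their group, so the HZ ages overlapped, whereas the LC ages did not in CPM but did in FPKM. The log2 fold change of HSPA5 was 0.63 (SE 0.37, edgeR adjusted p = 0.171) in HZ. Leaving out 1 library at a time moved it between 0.19 and 1.0. The alternatives that kept every library moved it between 0.11 and 0.68, and no alternative called it. In LC it was 0.29 (SE 0.10, edgeR adjusted p = 0.0315) and turned to -0.03 in both limma settings on FPKM. HSPA13, an ER-associated HSP70 with an ATPase domain only (chr13:179309746-179321297), stood at 40.9, 42.8 and 37.9 CPM in the Ha libraries and 64.4, 64.8 and 48.0 CPM in the Hb libraries. For LC the values were 40.6, 41.1 and 53.3 CPM in the La libraries and 59.2, 44.0 and 50.0 CPM in the Lb libraries. The HZ ages did not overlap in CPM but did in FPKM, and the LC ages overlapped in both. The log2 fold change of HSPA13 was 0.54 (SE 0.15, edgeR adjusted p = 0.0153) in HZ. For the log2 fold change of HSPA13, Ha vs Hb, library totals gave 0.24, upper-quartile factors 0.23 and limma 0.04 and 0.04, all with an adjusted p over 0.05 by edgeR or limma. In LC it was 0.20 (SE 0.16, edgeR adjusted p = 0.299) and turned to -0.07 with upper-quartile factors and to -0.10 and -0.11 with limma on FPKM.

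HSPA9, the mitochondrial HSP70 known as mortalin (chr2:140515239-140532164), stood at 549, 541 and 530.3 CPM in the Ha libraries and 317, 345 and 281 CPM in the Hb libraries. In LC the gene stood at 459, 423 and 475 CPM in the La libraries and 276, 263 and 251 CPM in the Lb libraries. All libraries of 120 d lay below those of 30 d in both breeds. The log2 fold change of HSPA9 was -0.78 (SE 0.12, edgeR adjusted p = 0.000972) in HZ. In LC it was -0.77 (SE 0.10, edgeR adjusted p = 0.000155). Both fell short of the fold threshold with TMM. HSPA9 was called in HZ with library totals (-1.08), upper-quartile factors (-1.10) and limma on FPKM (-1.26 and -1.28), and in LC with upper-quartile factors (-1.03) and limma (-1.07 and -1.08).

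**Figure D2:**
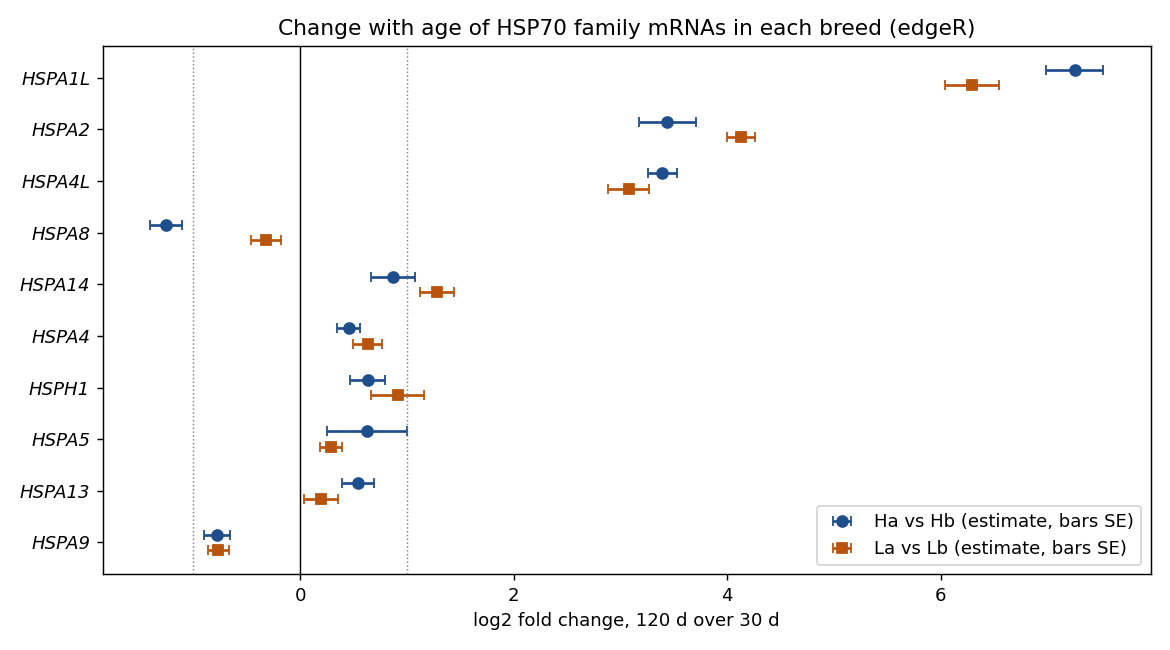
Change with age of each HSP70 family member in HZ (Ha vs Hb) and LC (La vs Lb), as log2 fold change (estimate, bars SE). HSPA1L, HSPA2 and HSPA4L lay at 3.08 or more in both breeds, and HSPA8 lay at -1.26 in HZ and -0.32 in LC; the signs of HSPA4 in HZ and of HSPA5 and HSPA13 in LC turned under other scalings.

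Per length, the order of the members changed with age. In Ha the mean FPKM ran HSPA8 (678 ± 75.3), HSPA9 (147 ± 2.88), HSPA5 (114 ± 45.4), HSPA4 (37.5 ± 2.58), HSPA2 (30.3 ± 8.52) and HSPH1 (23.9 ± 2.43) (SD, n = 3). HSPA14, HSPA13, HSPA4L and HSPA1L followed at 10.5, 8.58, 6.83 and 1.58 FPKM. In that order HSPA9 and HSPA5, HSPA4 and HSPA2, HSPA2 and HSPH1, and HSPA14 and HSPA13 overlapped between libraries. In Hb the order was HSPA2 (232 ± 30.7), HSPA8 (203 ± 22.7), HSPA1L (173 ± 40.2), HSPA5 (125 ± 55.6) and HSPA9 (61.0 ± 9.68) FPKM. The first 4 of these overlapped from each to the next, while HSPA2 lay above HSPA5 without overlap, and HSPA5 was the lowest of the 4 in each Hb library. HSPA4L, HSPA4, HSPH1, HSPA14 and HSPA13 followed in Hb at 50.8, 36.6, 26.2, 13.8 and 8.91 FPKM with no overlap between neighbours. In La the order was HSPA8 (476 ± 50.1), HSPA5 (189 ± 10.3), HSPA9 (120.1 ± 7.70) and HSPA4 (25.1 ± 3.96) FPKM without overlap. HSPA2 and HSPH1, HSPH1 and HSPA13, and HSPA13 and HSPA14 overlapped in La at 16.0, 14.4, 9.32 and 8.72 FPKM, above HSPA4L at 4.65 and HSPA1L at 1.36 FPKM. In Lb it was HSPA8 (307 ± 48.2), HSPA2 (224 ± 16.9), HSPA5 (186 ± 12.6), HSPA1L (87.5 ± 24.0) and HSPA9 (56.8 ± 1.81) FPKM without overlap. HSPA4L and HSPA4 overlapped in Lb at 31.6 and 31.3 FPKM, as did HSPH1 and HSPA14 at 21.8 and 17.2 FPKM, with HSPA13 last at 8.61 FPKM.

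The summed FPKM of the 10 members was 1210.4, 983 and 982 in the Ha libraries and 888, 884 and 1018 in the Hb libraries. In LC the sum was 795, 907 and 891 in La and 1066, 896 and 952 in Lb. Ha lay above La, every other pair of groups overlapped in this sum, and its make-up differed by age. HSPA1L, HSPA2 and HSPA4L together held 3.70, 4.33 and 2.95% of the family sum in Ha and 54.0, 46.6 and 46.9% in Hb. They held 2.72, 2.27 and 2.66% in La and 34.3, 37.9 and 34.0% in Lb. The ages did not overlap, and Hb lay above Lb in each library. HSPA8 held 63.1, 63.1 and 66.4% in Ha, 19.9, 24.3 and 21.3% in Hb, 53.6, 57.9 and 53.4% in La and 33.5, 29.2 and 31.8% in Lb. The FPKM sum of the other 7 members was 1019 ± 127 in Ha, 474 ± 65.8 in Hb, 842 ± 60.8 in La and 628 ± 71.5 in Lb (SD, n = 3).

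**Figure D3:**
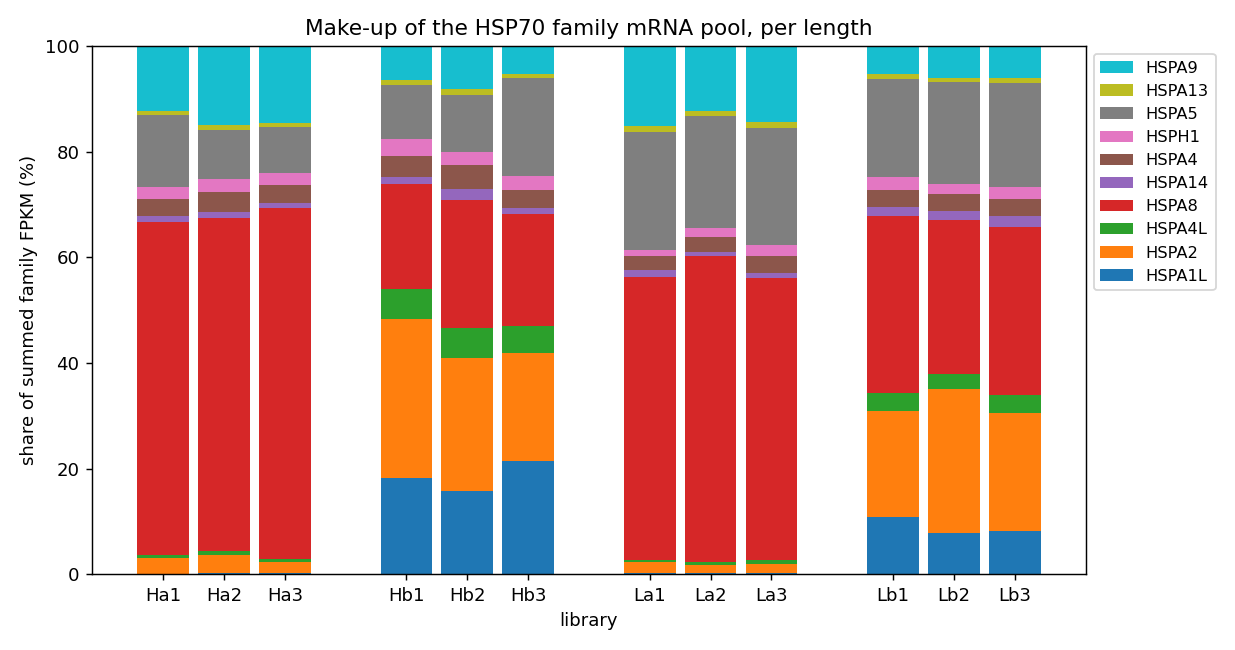
Share of the summed FPKM of the 10 members held by each member (percent, stacked, 1 column per library). HSPA8 held on average 64.2% in Ha and 21.8% in Hb, and 55.0% in La and 31.5% in Lb.

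Ratios of a germ-cell form to a general relative within the same library do not depend on library scaling. The FPKM ratio of HSPA4L to HSPA4 was 0.174, 0.18 and 0.194 in Ha, 1.47, 1.21 and 1.51 in Hb, 0.176, 0.176 and 0.199 in La and 1.06, 0.880 and 1.07 in Lb. The 30 d groups overlapped each other, and each 120 d group lay above them, Hb above Lb. The ratio of HSPA2 to HSPA8 was 0.0476, 0.0551 and 0.0316 in Ha and 1.51, 1.04 and 0.957 in Hb. It was 0.0390, 0.0278 and 0.0350 in La and 0.601, 0.932 and 0.705 in Lb. The mean ratio was 26.1-fold higher in Hb than in Ha and 22.0-fold higher in Lb than in La, again without overlap. For HSPA1L to HSPA8 the mean ratio was 0.859 ± 0.184 in Hb and 0.282 ± 0.0350 in Lb (SD, n = 3), against 0.00236 in Ha and 0.00286 in La. HSPH1 to HSPA4 overlapped between all pairs of groups, with means of 0.636 in Ha, 0.724 in Hb, 0.563 in La and 0.690 in Lb.

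The breeds were compared at each age. At 30 d, 0 members were called up in La over Ha (3.6% of 15648 mRNAs were) and 0 were called down (4.01%). For those counts by edgeR, 1 member was higher and 6 were lower at an unadjusted p under 0.05, and neither DESeq2 nor limma called any (0 each). The adjusted p was under 0.05 for 5 members, all lower in La, against 21.3% of all mRNAs. That number was 2 with all 12 libraries in 1 fit, 2 with replicate number as a block and 7 with DESeq2 and with either limma setting, and each of the 5 members had an edgeR adjusted p over 0.05 without at least 1 of the libraries. In this comparison 7 members did not overlap in CPM or in FPKM (41.8% and 41.5% of all). Their median log2 fold change was -0.37, against 0.00 for all mRNAs. HSPA2 was lower in La, with a log2 fold change of -0.90 (SE 0.20, edgeR adjusted p = 0.0181). The value was -1.11 and called without Ha3. HSPH1 had -0.71 (SE 0.21, edgeR adjusted p = 0.0479). HSPA4 had -0.55 (SE 0.12, edgeR adjusted p = 0.0169), HSPA4L had -0.53 (SE 0.15, edgeR adjusted p = 0.0416) and HSPA8 had -0.48 (SE 0.11, edgeR adjusted p = 0.0218). HSPA5 was the other way at 0.76 (SE 0.24, edgeR adjusted p = 0.0592), with all La libraries above all Ha libraries. Without Ha1 the HSPA5 value was 1.14 and called. HSPA9 stood at -0.26 (SE 0.08, edgeR adjusted p = 0.0505). HSPA1L, HSPA13 and HSPA14 had log2 fold changes of -0.17, 0.15 and -0.24. Of the spermatocyte markers 4 of 8 were called down in La (0 to 4 over the alternatives), and of the Sertoli cell markers 3 of 8 were called up. Also called were 1 of 7 Leydig cell markers, up (1 to 2), and 1 of 11 spermatogonial markers, down. The part of these cell types in the members' differences was not tested.

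At 120 d, 0 members were called up in Lb over Hb (2.65% of 16311 mRNAs were) and 1 was called down (1.2%). For the 0 by edgeR, 1 member was higher at an unadjusted p under 0.05, and DESeq2 and limma called 0. The adjusted p was under 0.05 for 2 members against 5.47% of all mRNAs, and 5 members did not overlap in CPM (32.3% of all) and 4 in FPKM (31.8%). The members' median was -0.19, against 0.00 for all mRNAs. HSPA1L was called, at a level 2.14-fold lower in Lb, with all 3 Lb libraries below all 3 Hb libraries and a log2 fold change of -1.10 (SE 0.25, edgeR adjusted p = 0.0484). That call was kept in 7 of 15 alternatives. It was lost with limma on FPKM (-0.99 and -1.0), without Hb1 (-1.12), without Hb3 (-0.89), without Lb1 (-1.37), without Lb2 (-0.97), without Lb3 (-0.98) and with replicate number as a block (-1.11). HSPA4L had -0.81 (SE 0.16, edgeR adjusted p = 0.0305), below the fold threshold and without overlap. Its edgeR adjusted p was over 0.05 with replicate number as a block and without Hb1, Hb3, Lb1, Lb2 or Lb3, up to 0.108. HSPA8 went the other way at 0.49 (SE 0.16, edgeR adjusted p = 0.106). The test of whether the change with age differed between breeds gave -0.97 (SE 0.32, edgeR adjusted p = 0.0907) for HSPA1L, which was called at -1.02 with DESeq2, -1.15 without Hb2 and -1.25 without Lb1. Of the spermatid markers 1 of 10 was called down in Lb (0 to 3 over the alternatives). All 10 had a negative log2 fold change, with a list median of -0.80. Called up were 5 of 10 peritubular and stromal markers (2 to 7), 1 of 5 endothelial (0 to 1) and 1 of 5 macrophage markers (0 to 2). Of the Leydig and Sertoli cell markers 0 were called up (0 to 5 and 0 to 2 over the alternatives). All of them had a positive log2 fold change, from 0.49 to 2.41 for Leydig and 0.22 to 1.08 for Sertoli cell markers. The part of these cells in the differences was not tested.

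Among other members of the HSP70 superfamily, 5 of 8 listed genes were in the table and tested, with 1 up and 3 down in HZ and 1 up and 1 down in LC. HYOU1, the HSP110-type chaperone of the ER, rose by a log2 fold change of 1.61 (SE 0.12) in HZ and 1.62 (SE 0.10) in LC. HSPA12B, of endothelial cells, had -1.50 (SE 0.16) in HZ and -1.05 (SE 0.16) in LC; the LC call was lost without Lb1 (-0.92) and with limma after adding 1 (-0.97). HSPA1A, HSPA1B and HSPA7 were not in the table by those symbols. HSPA12A was higher in Lb than in Hb by 1.06 (SE 0.21), and this call was lost without Hb1 (1.07), Hb3 (0.98), Lb1 (1.06), Lb2 (1.18) or Lb3 (0.94) with limma (0.67 and 1.05) and with replicate number as a block (1.05). The median log2 fold change of the list was -1.43 in HZ and -0.28 in LC.

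Lists of genes that work with HSP70 proteins in general were read beside the members, of all mRNAs 28.2% being called up and 23.2% down in HZ and 27.5% and 20.1% in LC. Of 47 J-domain co-chaperones tested in HZ (5 more listed were not in the table), which start the ATPase cycle of HSP70, 20 rose, 3 fell and 24 were not called, and of 46 in LC 17 rose, 1 fell and 28 were not called. DNAJC5B went from 0.142 ± 0.0969 CPM in Ha to 299 ± 30.8 CPM in Hb (SD, n = 3), with log2 fold changes of 10.97 (SE 0.34) in HZ and 8.60 (SE 0.27) in LC. DNAJB13, of sperm flagella, had 9.03 (SE 0.30) and 8.50 (SE 0.42). DNAJC18 and DNAJC12 fell in HZ with -2.03 (SE 0.20) and -3.04 (SE 0.40). In LC they had -1.0 (SE 0.42) and -1.12 (SE 0.50) and were not called; DNAJC18 was called without Lb1 (-1.47) and DNAJC12 without La1 (-1.44), and both with all 12 libraries in 1 fit (-1.02 and -1.14). For the interaction DNAJA4 had 1.17 (SE 0.22), DNAJC5B -2.39 (SE 0.53) and DNAJC5G 4.63 (SE 1.09). The DNAJC5B call was lost without Ha1 (-2.39), Ha2 (-1.97) or La1 (-1.87) and with limma after adding 1 (-0.82). The DNAJC5G call was lost without 8 of the 12 libraries in turn, at 4.21 without Lb1, 4.45 without Ha1, 4.62 without La1, 4.66 without La3, 4.68 without Hb3, 4.68 without La2, 4.70 without Ha2 and 4.70 without Lb2. It was also lost with replicate number as a block (4.55). All La libraries had 0 counts of DNAJC5G, so its fitted value depends on the prior count and is no bound. With limma on FPKM the DNAJC5G value was 0.02 and 0.54, and the gene stood at 0.1 FPKM or less in the Ha libraries and 0.45 or less in the Hb libraries. The medians of the list were 0.89 in HZ and 0.67 in LC. Genes at 3 counts or fewer in every library of a group numbered 3 in each breed. They were DNAJB7, DNAJB8 and DNAJC22 in HZ and DNAJB7, DNAJB8 and DNAJC5G in LC. All lay above the list's medians also when set to 3 counts per library (lowest bounds 5.58 in HZ and 2.87 in LC). The medians therefore do not depend on their fitted values. With limma after adding 1 to FPKM, the counts called up were the lowest over the 15 alternatives, 12 and 10.

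Of 10 nucleotide exchange factors, 4 rose in HZ and 5 in LC, and the other 6 and 5 were not called. BAG5 rose by 4.28 (SE 0.15) in HZ and 4.34 (SE 0.81) in LC. La2 stood apart for BAG5 at 0.24 FPKM, against 4.86 and 6.14 in the other La libraries, and without La2 the log2 fold change of BAG5, La vs Lb, was 3.78. BAG6, which stabilises HSPA2 in germ cells of mice, rose by 1.57 (SE 0.15) and 1.34 (SE 0.09). The LC call of BAG6 was lost with limma after adding 1 (0.99). The list's medians were 0.75 and 1.13. Of 9 listed HSPA2 partners, 8 rose in HZ and 9 in LC, with medians of 3.40 and 4.80. TNP1, at 3 counts or fewer in every library of the 30 d groups, lay above these medians also when set to 3 counts per library (bounds of 8.58 and 7.86), so the medians do not depend on its fitted value. SPAM1, a sperm surface hyaluronidase, rose by 7.39 (SE 0.28) and 6.95 (SE 0.21). TNP2, a transition protein of spermatid chromatin, rose by 10.82 (SE 0.47) and 9.42 (SE 0.37). TNP1 and TNP2 are also among the spermatid markers, FKBP6 is also on the list of the HSP90 machine and BAG6 is also a listed nucleotide exchange factor. Genes shared between lists were counted in each list, so the lists are not separate observations. CCNB1 was lower in La than in Ha by -1.06 (SE 0.11); the call was lost without La2 (-0.97). Of the 3 genes listed with HSPA14, DNAJC2, its partner on the ribosome, rose by 1.74 (SE 0.18) in HZ and 1.27 (SE 0.14) in LC, where limma on FPKM gave 0.83 and 0.95 without a call. The other 2 genes of that list, NACA and BTF3, singled out after their values were seen, were not called in either breed. In LC both were lower at 120 d without overlap. NACA had -0.68 (SE 0.10, edgeR adjusted p = 0.00031) and BTF3 -0.71 (SE 0.09, edgeR adjusted p = 0.000193), and 1 gene of the list was called down in 2 of the 15 alternatives.

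In the HSP90 machine, which receives clients from HSP70, 6 of 18 genes rose and 3 fell in HZ, and 5 rose and 1 fell in LC. FKBP4 rose by 2.30 (SE 0.15) in HZ and 2.49 (SE 0.14) in LC, and TOMM70, a mitochondrial import receptor, by 2.55 (SE 0.19) and 2.21 (SE 0.14). UNC45A and HSP90AB1 fell in HZ with -1.64 (SE 0.14) and -1.17 (SE 0.18). Their LC values were -0.84 (SE 0.10) and -0.94 (SE 0.09), called only under other scalings, at -1.01 to -1.14 and -1.11 to -1.26. Of 11 chaperonin genes, 4 rose and 2 fell in HZ and 6 rose and 2 fell in LC. CCT6B, the testis form of a subunit of the cytosolic chaperonin, rose by 4.58 (SE 0.29) and 4.80 (SE 0.14), and CCT3 by 1.26 (SE 0.13) and 1.44 (SE 0.10). The HZ call of CCT3 was lost with library totals (0.95), upper-quartile factors (0.94) and limma (0.77 and 0.77). HSPD1 and HSPE1, the mitochondrial chaperonins that work beside HSPA9, fell with log2 fold changes of -1.95 (SE 0.15) and -1.84 (SE 0.19) in HZ and -1.44 (SE 0.14) and -1.35 (SE 0.13) in LC. Of 12 mitochondrial HSP70 partners in the table (PAM16 was not), 1 rose and 3 fell in HZ, and 1 rose and 2 fell in LC. HSPD1 and HSPE1 are on this list too and are among the genes that fell in each breed. LONP1, a matrix protease, had -1.77 (SE 0.13) in HZ and -0.78 (SE 0.16) in LC, called in LC with upper-quartile factors (-1.04) and limma (-1.07 and -1.09). DNLZ, which keeps HSPA9 soluble, had 1.11 (SE 0.21) and 1.51 (SE 0.31); its HZ call was lost without Ha2 (0.99), with library totals (0.81), upper-quartile factors (0.79) and limma (0.57 and 0.63). Medians in HZ and LC were 0.16 and 0.29 for the HSP90 machine, 0.58 and 1.02 for chaperonins and -0.58 and -0.46 for the mitochondrial partners.

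Of 23 ER stress response genes, the set that normally moves with HSPA5, 10 rose and 2 fell in HZ and 9 rose and 4 fell in LC, with medians of 0.90 and 0.31. SDF2L1 rose by 4.88 (SE 0.23) in HZ and 5.03 (SE 0.28) in LC, and CRELD2 by 2.91 (SE 0.18) and 3.05 (SE 0.13). EDEM1 had -1.70 (SE 0.16) and -1.24 (SE 0.13), and PDIA4 -1.09 (SE 0.14) and -1.17 (SE 0.10); the HZ call of PDIA4 was lost without Hb3 (-0.98). All 4 tested of 5 germ-cell ER chaperones and clients rose in both breeds, with medians of 6.11 and 6.05. SPACA1, an acrosomal membrane protein, rose by 6.17 (SE 0.21) and 6.36 (SE 0.20), and ADAM2, a sperm surface protein, by 9.30 (SE 0.36) and 8.70 (SE 0.29). SPACA1 is also among the spermatid markers. Of 6 listed genes HSF4 was not in the table. Of the other 5, the heat shock factors HSF1, HSF2 and HSF5 and the factor-binding proteins HSBP1 and HSF2BP, 4 rose in each breed, with medians of 1.58 and 1.65. HSF2, singled out after its values were seen, was not called, at 0.44 (SE 0.12) in HZ and 0.77 (SE 0.12) in LC. HSF5 rose by 4.81 (SE 0.43) and 6.98 (SE 0.49), and HSF2BP by 1.58 (SE 0.15) and 1.96 (SE 0.12). HSF5 was lower in La than in Ha by -2.18 (SE 0.51). That call was lost without Ha1 (-1.92), Ha2 (-2.25), La1 (-2.15) or La3 (-1.77) and with limma after adding 1 (-0.27). Of 7 small heat shock proteins tested, 1 rose and 4 fell in HZ and 1 rose and 2 fell in LC, with medians of -1.36 and -0.56. HSPB9, a testis form, rose by 10.10 (SE 0.29) and 9.23 (SE 0.19). HSPB8 fell with -3.49 (SE 0.31) and -2.18 (SE 0.58), and HSPB6 had -1.82 (SE 0.18) and -0.57 (SE 0.14). The interaction for HSPB6 was 1.23 (SE 0.21). HSPB8 was higher in LC, by 1.96 (SE 0.12) at 30 d and 3.28 (SE 0.75) at 120 d. The latter call was lost without Hb1 (3.04), Hb2 (3.62), Hb3 (3.25), Lb1 (3.08) or Lb2 (2.82) with limma (1.54 and 2.67) and with replicate number as a block (2.95).

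The 10 members lay on chromosomes 1, 2, 7, 8, 9, 10, 11 and 13, with HSPA1L and HSPA2 on chromosome 7 and HSPA4 and HSPA9 on chromosome 2. The 20 mRNAs directly on each side of the members included 5 called up and 1 called down of 17 tested in HZ, and 5 up and 3 down of 19 in LC, beside 28.2% up and 23.2% down of all mRNAs in HZ and 27.5% and 20.1% in LC. PPP1R36, 4655 bp from HSPA2, had log2 fold changes of 4.41 (SE 0.22) in HZ and 4.13 (SE 0.12) in LC. ZBTB1, on the other side of HSPA2 at 4414 bp, had -0.70 (SE 0.25) and -0.71 (SE 0.15) and was not called with TMM. In HZ it was called with library totals (-1.02), upper-quartile factors (-1.03) and limma after adding 0.1 to FPKM (-1.19). PLK4, on one side of HSPA4L, had 4.18 (SE 0.22) and 3.84 (SE 0.19), and SLC25A31, on the other, 4.23 (SE 0.32) and 4.75 (SE 0.28). General members also had neighbours that were called up. RABEPK, 982 bp from HSPA5, had 1.92 (SE 0.20) and 2.22 (SE 0.21). LOC102159067, beside HSPH1 and at 0.168 CPM in Ha, had 4.65 (SE 0.89) and 2.89 (SE 0.98). Called down in LC were FSTL4 beside HSPA4 (-2.43), SAMSN1 beside HSPA13 (-1.45) and CDNF beside HSPA14 (-1.68). Beside HSPA1L, NEU1 had -1.99 (SE 0.34) in HZ and -0.91 (SE 0.27) in LC. The LC value of NEU1 was called with library totals (-1.09), upper-quartile factors (-1.17), limma on FPKM (-1.15 and -1.28) and without Lb2 (-1.32). LSM2 had -0.14 (SE 0.16) and 0.08 (SE 0.20), and its LC sign turned with library totals, upper-quartile factors and limma. Of the lncRNA table, 14 transcripts lay within 10 kb of 6 members. An assembled lncRNA ended 154 bp before the start coordinate of HSPA2 (chr7:88596924-88606986), at 103, 145 and 38.5 CPM of lncRNA counts in Ha and 1837, 1662 and 1392 CPM in Hb. Among LC boars it stood at 30.1, 25.2 and 27.9 CPM in La and 1649, 2081 and 2396 CPM in Lb. The ages did not overlap, and Ha3 was the lowest Ha library for it as for HSPA2. Its log2 fold change was 4.07 (SE 0.50) in HZ and 6.20 (SE 0.32) in LC. A longer assembled form in the same place (chr7:88594161-88606989) had 4.96 (SE 0.60) in HZ. In LC that form had 0 counts in La2 and La3 and 15.1 CPM in La1, against 783, 836 and 1092 CPM in Lb.

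The mRNAs whose profile over the 12 libraries was most like that of each germ-cell form were found among 15133 genes by the root mean square difference of centred log2 CPM. For HSPA2 these were CELSR3 (0.17), CEP72 (0.19) and PLK1 (0.19), and the same 3 genes came out when 0.1 CPM in place of 0.5 CPM was added before the log. For HSPA4L they were PPP2R3C (0.20), DNAJB1 (0.23) and LZTFL1 (0.23), of which 2 came out again. DNAJB1, a main J-domain partner of cytosolic HSP70, had means of 86.4 CPM in Ha, 807 in Hb, 65.4 in La and 532 in Lb. For HSPA1L they were HMGB4 (0.20), PRM2 (0.20) and DNAJB8 (0.23). With 0.1 CPM added, 0 of these 3 came out again, and PRSS58 (0.27), TPD52L3 (0.30) and WDR87 (0.30) took their place. HMGB4, PRM2 and DNAJB8 were near 0 CPM at 30 d, where HSPA1L was not, with HMGB4 at 0.0257 CPM in Ha and HSPA1L at 4.75 CPM.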

How the data were processed

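Testis RNA of 12 boars (3 per group) had been depleted of rRNA and sequenced as strand-specific paired reads. According to the methods and the submitters' processing notes, the authors trimmed reads with fastp 0.18.0, removed rRNA reads with Bowtie2 2.2.8, aligned with HISAT2 2.1.0 to Sscrofa11.1 and assembled transcripts with StringTie 1.3.4. The authors deposited an unnormalised estimated count per gene, many of them not whole numbers; the counting tool is not given in the sources used here. The authors also deposited FPKM per gene, made with StringTie.

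Estimated counts were rounded to whole numbers, filtered with filterByExpr (minimum count 10), scaled by TMM and tested in R 4.3.3 with edgeR 4.0.16 (glmQLFit, glmQLFTest), with Benjamini-Hochberg adjustment over all mRNAs tested. To be called, a gene had to reach an adjusted p below 0.05 together with a log2 fold change beyond 1 either way. The ages were compared within each breed and the breeds at each age, 4 comparisons with each fitted on its own 6 libraries; the interaction was fitted on all 12. The p values set the difference between groups against the variation between boars within groups, estimated with information shared over all mRNAs tested. SE was the absolute log2 fold change divided by the square root of F. On simulated data edgeR met the limit set on false calls and DESeq2 did not. The limit was then applied to edgeR alone. DESeq2 calls may be less strict than their adjusted p. The simulated counts were drawn with edgeR's own estimates of variation, so they cannot decide this for the deposited counts.

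The members and lists were chosen with earlier results of these data known. Named were all 10 members; per pathway list, up to 2 genes per direction with the smallest adjusted p in Ha vs Hb among called genes whose groups did not overlap; between breeds and for the interaction, every called list gene if 5 or fewer, otherwise 3; the 3 nearest profiles of HSPA1L, HSPA2 and HSPA4L; and in marker lists the most abundant gene and those at 3 counts or fewer. Neighbours were the mRNAs on each side of a member and lncRNAs within 10 kb.

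Alternatives were DESeq2 1.42.0, library totals, upper-quartile factors, limma 3.58.1 on log2 FPKM with 1 or 0.1 added, no filter, 10 counts in every library of 1 group, all 12 libraries in 1 fit, replicate number as a block, and leaving out each library. Alternatives for list genes, list counts, neighbours, the germ-cell share and summed FPKM, the value added for nearest profiles and the ER genes within libraries, and overlap of groups in FPKM, were chosen after seeing the data. Protein and promoter sequences were not used here.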

Additional observations from a re-analysis of the deposited data

Results flagged for a closer look

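The change of HSPA8 with age was tested for a difference between the breeds. The change in LC minus the change in HZ was a log2 value of 0.92 (SE 0.20, edgeR adjusted p = 0.0234) over all 12 libraries. It is listed here because the adjusted p was under 0.05; the value was short of the fold threshold of 1, so HSPA8 was not called. The size ran from 0.88 to 1.105 in the alternatives that kept every library and from 0.78 to 1.04 when 1 library was left out. The edgeR adjusted p passed 0.05 without Ha1 (0.0514) and without La1 (0.056) (log2 fold change of HSPA8, interaction). Cell markers were called in the same test: 5 of 10 peritubular and stromal, 2 of 11 spermatogonial, 1 of 5 endothelial and 1 of 5 macrophage markers positive, and 2 of 10 spermatid markers negative. The part of cell composition in the HSPA8 difference was not tested.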

How the results depend on the processing

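Of 800 alternative values for the 50 changes of members, 747 kept their direction and their side of the call thresholds, 10 lost a call, 22 gained one and 21 turned sign. Of 1325 for 87 changes of list genes and neighbours, 1235 kept both, 52 lost a call, 33 gained one and 5 turned. Protein identity and promoter motifs were not run, for want of sequences. With counts divided by implied length in place of FPKM, all 40 shares of members per group moved by less than 1 SD. That length is implied by the same deposited counts and FPKM, so this shows little about the stability of the shares. Leaving out libraries from a mean of 3 shows nothing about the stability of shares or ratios. DESeq2 made more false calls than edgeR on data simulated with edgeR's own estimates of variation. Counts called by DESeq2 may be less strict than their adjusted p, but these simulations cannot decide it. With 3 boars per group, small changes and calls near a threshold are the least certain, and genes with few counts at 30 d have uncertain folds. Replicate numbers were not taken as pairs: deviations of replicates with the same number correlated at -0.061 to 0.057 over 17332 genes.

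The log2 fold change turned sign for HSPA4 in Ha vs Hb with limma on FPKM plus 1 (-0.0343) and plus 0.1 (-0.0351), for HSPA5 (log2 fold change of HSPA5, La vs Lb) with both (-0.02555 and -0.0257), and for HSPA13 (log2 fold change of HSPA13, La vs Lb) with upper-quartile factors (-0.0650) and both limma settings (-0.10 and -0.11). LSM2 in La vs Lb turned with library totals (-0.0857), upper-quartile factors (-0.18) and limma (-0.23 and -0.25); without 1 library it ran from -0.0593 to 0.226 (log2 fold change of LSM2, La vs Lb). In the interaction test HSPA9 (log2 fold change of HSPA9, interaction) turned with library totals (0.15), upper-quartile factors (0.0609) and limma (0.20 and 0.20) and ran from -0.0396 to 0.0829 without 1 library; HSPA5 ran from -0.67 to 0.13, positive without Hb3. The cause was not tested.

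Members called down in Ha vs Hb numbered 2 with library totals, 2 with upper-quartile factors and 2 and 2 with the limma settings (HSPA8 and HSPA9); in La vs Lb they numbered 1 with upper-quartile factors, 1 and 1 with limma (HSPA9). In Ha vs La, members called up ran from 0 to 1 without 1 library and members called down from 0 to 1. In Hb vs Lb, members called down numbered 0 and 0 with limma, 0 with the replicate block, and 0 to 1 without 1 library. Members called for the interaction numbered 1 with DESeq2, 1 with library totals, 1 and 1 with limma, and 0 to 1 without 1 library. Over all genes (all mRNAs called, Ha vs La) the count was 507 with limma plus 1. At 120 d between breeds (all mRNAs called, Hb vs Lb) the count was 1176 with DESeq2, 1258 with all 12 libraries in 1 fit, 154 with the replicate block, and 97 to 1029 without 1 library. For the interaction (all mRNAs called, interaction) the count was 1363 with DESeq2, 1365 with limma plus 0.1, and 437 to 1242 without 1 library. With fewer libraries the test has less data; other causes were not tested.

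The share of calls that were up in Ha vs Hb was 54.8% with TMM, 44.1% with library totals, 43.7% with upper-quartile factors and 42.3% and 38.5% with limma. In La vs Lb it was 57.7%, and 47.1% with upper-quartile factors and 46.1% with limma plus 0.1. In Hb vs Lb it was 68.8%, and 79.7% and 79.98% with limma. For the interaction it was 68.4%, and 81.6% with library totals. Counts called up in Ha vs Hb over the alternatives ran from 12 to 21 for J-domain co-chaperones, 1 to 5 for chaperonins and 6 to 11 for ER stress genes.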

Other observations

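Within groups, HSPA5 in Ha1 was 0.92 (log2) above the mean of the other Ha libraries, and in Hb3 it was 1.05 above the mean of the other Hb libraries. Of 23 ER stress genes tested, Ha1 was the highest Ha library for 6, against 33.4% of all 17332 mRNAs, and Hb3 was the highest Hb library for 4, against 25.0%. The list's median difference was -0.01 in Ha1 and -0.09 in Hb3. P4HB, a disulphide isomerase of the ER, was lowest in the same libraries, at 4.22, 15.6 and 128 CPM in Ha and 217, 90.3 and 12.3 CPM in Hb. In LC it stood at 243, 261 and 269 CPM in La and 160, 85.6 and 180 CPM in Lb. P4HB and these libraries were looked at after their values were seen, and no test was made.

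HSPA1L, at 1.58 FPKM in Ha, and HSP70.2, at 105 FPKM, changed order with age in HZ, with 173 and 27.8 FPKM in Hb. In CPM, which is not divided by length, the means were 4.75 and 239 in Ha and 725 and 88.5 in Hb. HSP70.2 lies inside the annotated span of HSPA1L. In LC the means were 1.36 and 75.6 FPKM in La and 87.5 and 36.0 FPKM in Lb (4.23 and 176 CPM in La and 328 and 103 CPM in Lb). A lncRNA inside the same span, LOC100624113, had log2 fold changes of -1.43 in HZ and -1.67 in LC.

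The 10 members together held between 0.266% and 0.447% of the estimated counts of a library. The lowest share was in La1 and the highest in Hb3.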
